A study of Gallus gallus with 144 samples.

Results

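The stretch described here is a 220 kb piece of chicken chromosome 7 (GRCg6a build, positions 15200001 to 15420000) that ends just past the promoter of PLEKHA3. Its members were all CAGE peaks, on both strands, with a representative position between those bounds on the sequence that holds the PLEKHA3 promoter. There were 401 of them among the 153662 peaks of the whole list. The bounds were chosen because the peaks there were many and nearly all on 1 strand, so counts and strand are given below as a description and carry no test. The place was also chosen as the one where the giant muscle gene titin is expected.

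Peaks were mapped by CAGE, which captures RNA by its 5′ cap and is meant to read where transcripts begin. Whether each peak is such a start was not tested. The 24 birds were labelled as fast growing or slow growing, 12 of each, and every bird gave brain, breast, heart, kidney, leg and liver, for 144 libraries, 12 per tissue and growth type. The labels used here name no strain or age. The list is pooled over all libraries, with no value per library and no height per peak, so depth is unknown, growth types and tissues could not be compared, and the tissue behind a peak, or how much RNA it stands for, cannot be told. Intervals below are 95% Wilson intervals for shares and order-statistic intervals for medians. They cover counting over peaks only, and neighbouring peaks are not replicates.

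Titin, encoded by TTN, is the giant elastic protein of striated muscle. A single molecule reaches from the Z-disc, where thin filaments are anchored, to the M-band in the middle of the thick filament, and its spring-like part in the I-band sets the passive tension of heart and skeletal muscle. The gene is built of a very large number of exons, most of them coding for repeated immunoglobulin and fibronectin domains.

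No peak of the list carried the name TTN. Of the 10437 names in promoter labels 1833 were Ensembl identifiers that could not be paired with a symbol, so a gene whose symbol is missing may still be labelled under an identifier. By RefSeq's gene table for GRCg7b, used for names and order only, TTN lies directly between CCDC141 and PLEKHA3, and the table places 3 further genes within it, namely the microRNA gene MIR7474 and the protein-coding entries LOC124418098 and LOC121113381. In the peak list the CCDC141 promoter lay at 15081911 on the plus strand, before the stretch. The promoter peaks labelled gga-mir-7474, another name of MIR7474, lay inside the stretch. The neighbours on both sides, and the microRNA, thus stood in the same order in the list as around and within TTN in the table. Titin was expected there when the stretch was chosen, so this order is given as a description. An annotation of GRCg6a was not used here, so no peak was assigned to an exon, an intron or a UTR, and no sequence is shown.

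The plus strand held 383 of the 401 peaks (95.5%, interval 93.0 to 97.1), against 49.98% of all other peaks and 50.1% of the whole list. With 18.2 peaks per 10 kb, the stretch was far denser than the rest of the chromosome, which had 1.43 per 10 kb. It took up 0.599% of the span from the first to the last peak of chromosome 7 and held 7.13% of its 5624 peaks. In the 220 kb before the stretch there were 91 plus-strand and 15 minus-strand peaks, most of them in the run described further on, and in the 220 kb after it 11 and 12.

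Along the stretch the plus-strand peaks came in 4 sections, drawn after the counts were seen. From 15200001 to 15240000 there were 75 plus-strand peaks, or 18.75 per 10 kb. From 15240001 to 15290000 there were 35, or 7 per 10 kb, with the lowest tile at 3 peaks. This section was thinner than the one on either side. From 15290001 to 15380000, called the dense run below, 9 adjoining tiles of 10 kb each held at least 15 plus-strand peaks, 259 in all, or 28.8 per 10 kb. Its fullest tiles had 38 (15360001 to 15370000) and 37 (15340001 to 15350000) and its emptiest had 15 (15290001 to 15300000). The last section, from 15380001 to the end, fell back to 14 plus-strand peaks, or 3.5 per 10 kb. The dense run thus held 67.6% of all plus-strand peaks of the stretch, while its minus strand had 6 peaks.

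**Figure D1:**
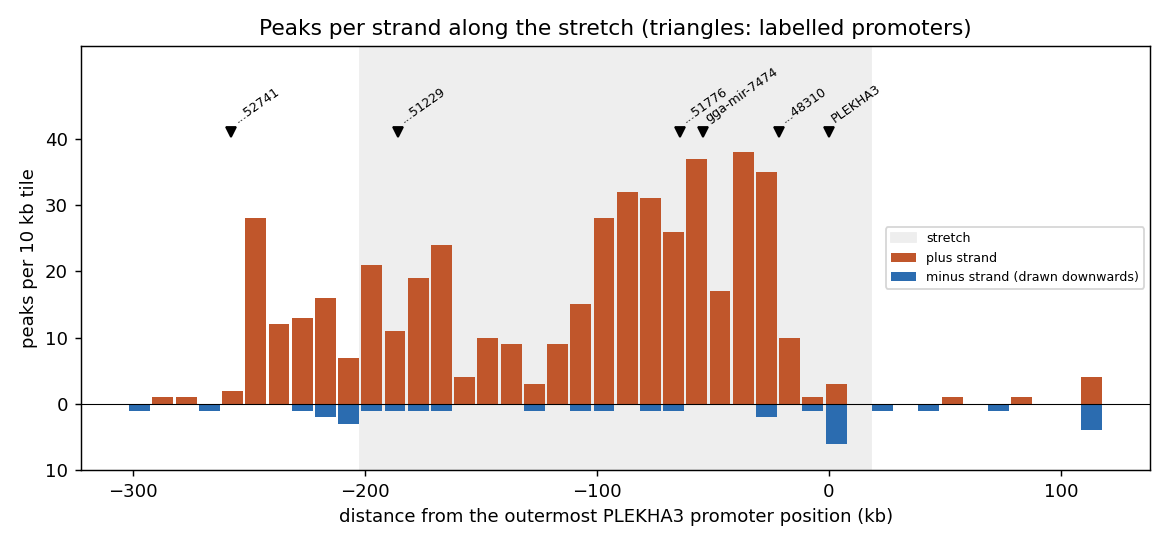
Peaks per 10 kb tile on the plus strand (upward bars) and the minus strand (downward bars) against the distance in kb from the outermost PLEKHA3 promoter position, with the stretch shaded and labelled promoters as triangles (dots stand for the shared start of an Ensembl identifier). The plus-strand bars reach 38 in the dense run and continue to the left of the shaded stretch, while minus-strand bars inside the stretch reach 6 only at PLEKHA3.

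Of the 401 peaks, 25 carried the authors' promoter label (6.23%, interval 4.26 to 9.04), against 16.2% of all peaks. In the myosin cluster of chromosome 18, described further on, the share was lower still, at 8 of 541 peaks (1.48%, interval 0.751 to 2.89). The 25 labelled peaks of the stretch named 6 genes, of which 2 matched the RefSeq table. The other 4 are known here by Ensembl identifier alone. On the plus strand the first was ENSGALG00000051229, with 2 peaks of 5 and 15 bp between 15216284 and 15216396. Next came ENSGALG00000051776 with 7 peaks of 4 to 37 bp, whose representative positions spread over 451 bp from 15337781 to 15338232. The microRNA gene gga-mir-7474 followed with 4 peaks of 2 to 21 bp from 15347724 to 15348243. The latter pair sat inside the dense run, with unlabelled peaks on the same strand before and after them. ENSGALG00000048310, with 3 peaks of 7 to 15 bp from 15380203 to 15380472, lay where the dense run ended.

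Unlabelled plus-strand peaks filled the spaces between these promoters. Between ENSGALG00000051229 and ENSGALG00000051776 there were 194 over 121 kb, or 1.60 per kb, with a median width of 11 bp. Between ENSGALG00000051776 and gga-mir-7474 there were 33 over 9.50 kb, or 3.47 per kb. From gga-mir-7474 to ENSGALG00000048310 there were 100 over 31.97 kb, or 3.13 per kb. Each of these 3 spaces had the same median width, and the spaces on either side of gga-mir-7474 were the densest. Past ENSGALG00000048310 the count dropped to 8 over 21.3 kb, or 0.375 per kb, and these few were wider, with a median of 24.5 bp.

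At the far end stood a pair of promoters on opposite strands. PLEKHA3, which encodes a phosphoinositide-binding protein of the Golgi, had 6 minus-strand peaks of 7 to 25 bp between 15401747 and 15401911. ENSGALG00000009149 had 3 plus-strand peaks of 6 to 10 bp between 15401800 and 15401961. The 9 peaks lay within 215 bp and were interleaved, the first plus-strand representative position being 46 bp past the first minus-strand one. A gap of 8833 bp separated them from the last unlabelled plus-strand peak before them, at 15392921, and no further peak lay between them and the end of the stretch. Transcription of PLEKHA3 runs back into the stretch, opposite to the dense run. In the window 500 to 20000 bp past its first promoter peak it had 1 unlabelled peak on its own strand, against 4 opposite.

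Unbroken rows of plus-strand peaks were long. The longest held 122 peaks with no minus-strand peak between them, from the 1 bp peak at 15339098 to the 11 bp peak at 15378717 to 15378727, with 39624 bp between the representative positions of the first and the last. It was the longest such row on either strand in the list. The next in the stretch held 91 peaks over 28105 bp, measured likewise, from an 8 bp peak at 15300498 to 15300505 to a 3 bp peak at 15328604 to 15328606. Rows of 91 or more made up 0.00546% of all 54941 rows in the list, whose median length was 2, and the 1 such row outside the stretch lay in the myosin cluster of chromosome 18, with 101 peaks over 8021 bp. That cluster codes for the fast myosin heavy chains of skeletal muscle and was taken between 350001 and 700000, where 486 of 541 peaks lay on the minus strand (89.8%). The row of 101 peaks in the myosin cluster was thus packed into a shorter span than either row of the stretch. The cut of 91 is the length of the second row of the stretch itself. Below it came rows of 86 and 73 peaks on sequences without a chromosome name, and 66 on chromosome 27. The rows of the stretch describe what it was chosen for.

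The 4 full 20 kb tiles of the dense run held 60, 57, 54 and 73 plus-strand peaks in order, beside 1, 2, 0 and 2 on the minus strand. A count of 54 or more on 1 strand was found in 0.0278% of the 43174 tiles that held any peak, which is 12 tiles, and 8 of these lay outside the stretch. Among those 8, the myosin cluster had 4 with 58 to 123 peaks, chromosome 4 had 2 with 54 and 55, and chromosome 1 had 1 with 69. The remaining tile was that of mitochondrial DNA. The median tile had 2 peaks on its fuller strand.

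Width was not part of the choice of the stretch, but density was, and widths moved with density, as given further on. The plus-strand peaks of the stretch were of a more even kind than all unlabelled peaks of the list. Plus-strand peaks had a median width of 11 bp (interval 11 to 11, n = 383), quartiles of 7 and 14 bp and a range of 1 to 56 bp. All unlabelled peaks of the list had a median of 7 bp and quartiles of 1 and 16 bp. Just 5 of 383 plus-strand peaks were 1 bp wide (1.31%, interval 0.559 to 3.02), against 27.2% of all unlabelled and 23.7% of all peaks. At the other end, 10.7% were 20 bp or wider (interval 7.99 to 14.2), against 18.8% of all unlabelled peaks. None was over 100 bp (interval up to 0.993%), but only 0.207% of all unlabelled peaks were, so this absence sets the stretch apart little. By the shares at 1 bp and at 20 bp or wider, the stretch had fewer peaks at both extremes than the unlabelled peaks of the list. These are shares of 1 pooled list with no test. In the myosin cluster the minus-strand peaks had the same median of 11 bp, with 3.91% at 1 bp (interval 2.52 to 6.02).

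A single width stood out. Of the 383 plus-strand peaks, 78 were exactly 11 bp wide (20.4%), and in 74 of these 78 the representative base was the middle one, with 5 bases on each side (94.9%, interval 87.5 to 98.0). Such peaks made up 19.3% of the plus-strand peaks of the stretch, 11.1% of the myosin cluster's minus-strand peaks, 5.31% of all labelled and 2.91% of all unlabelled peaks. The second commonest single widths were 12 bp, with 43 peaks, and 6 bp, with 40. Peaks of 6 bp made up 10.4% in the stretch, 11.7% in the myosin cluster, 8.04% of all labelled and 5.09% of all unlabelled peaks. Among all unlabelled peaks wider than 1 bp, 6 bp was the commonest width. In 35 of the 40 peaks of 6 bp the representative base was the first or the last (87.5%), so that 5 bases lay on 1 side of it only. In the myosin cluster 80.6% of 11 bp peaks had their representative base in the middle and 86.0% of 6 bp peaks had it at an end. For all unlabelled peaks of the list these shares were 62.7% and 73.9%.

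**Figure D2:**
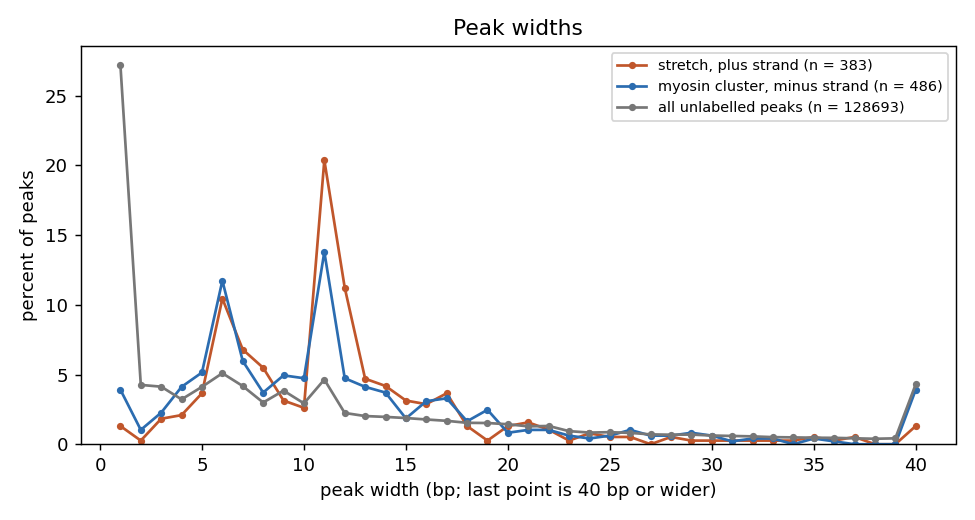
Percent of peaks (vertical axis) at each width in bp (horizontal axis, the last point pooling 40 bp and wider) for the 383 plus-strand peaks of the stretch, the 486 minus-strand peaks of the myosin cluster and the 128693 unlabelled peaks of the list. The stretch and the myosin cluster peak at 11 bp and again at 6 bp. The unlabelled peaks of the list are commonest at 1 bp and have lower local peaks at 6 and 11 bp.

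Widths moved with local density over the whole list. Outside the stretch, unlabelled peaks in tiles of 20 kb with at most 2 peaks on the fuller strand had a median width of 5 bp and were 1 bp wide in 36.0% of cases. In tiles with 20 to 29 peaks these values were 11 bp and 7.30%, and in tiles with 50 or more they were 11 bp and 2.83% (interval 1.86 to 4.29, n = 742). Within the stretch, tiles with 50 or more gave 11 bp and 1.26% (interval 0.430 to 3.64, n = 238). At equal density the intervals thus overlapped, and the part that density has in the widths of the stretch was not tested.

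The widest plus-strand peaks were unlabelled. They measured 56 bp (15263542 to 15263597), 50 bp (15344445 to 15344494), 48 bp (15232634 to 15232681), 47 bp (15223213 to 15223259) and 41 bp (15380768 to 15380808). Of these 5, 1 lay in the dense run, and in the widest the representative base was its first. The 5 peaks of 1 bp lay at 15215130, 15289552, 15316689, 15339098 and 15378099.

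Spacing in the dense run ranged from close pairs to gaps of some kilobases. Between the 259 plus-strand peaks the median gap was 190.5 bp (interval 151 to 275), with quartiles of 55 and 479 bp and a range of 9 to 3080 bp. Gaps of 50 bp or less made up 24.0% and gaps of 1000 bp or less 93.4%. In the myosin cluster the median gap was 51 bp (interval 44 to 72) and 49.9% of gaps were 50 bp or less. The dense run was bounded by its counts per tile, which keeps long gaps out of it, while the myosin cluster was taken whole. Over the whole stretch the median plus-strand gap was 248 bp (interval 189 to 305, n = 382), 22.8% of gaps were 50 bp or less and the longest was 8946 bp, against 22873 bp in the myosin cluster. Gaps over 1000 bp numbered 17 in the dense run and those over 2000 bp 3, at 15291781, 15328605 and 15332708.

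**Figure D3:**
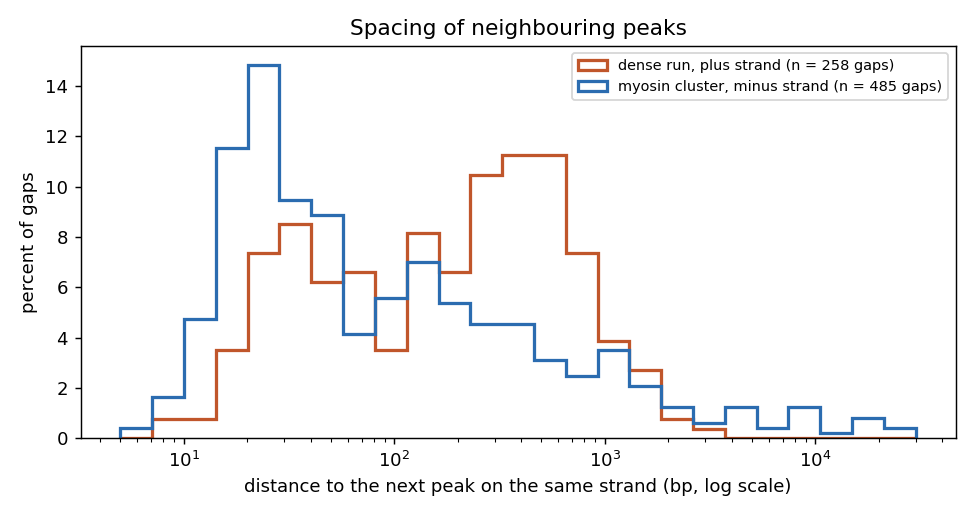
Percent of gaps (vertical axis) by distance in bp to the next peak on the same strand (horizontal axis, log scale) for the 258 gaps of the dense run and the 485 gaps of the myosin cluster. The dense run has a lower hump below 100 bp and a higher one between it and 1000 bp, and the myosin cluster has its main hump below 100 bp.

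Joined where neighbours were 100 bp or less apart, the 259 peaks of the dense run formed 164 clusters. Of these, 109 were single peaks (66.5%, interval 58.9 to 73.2), 36 were pairs and 10 were triplets. In the myosin cluster 52.2% were single peaks (interval 45.4 to 59.0). The clusters of the dense run lay a median of 398 bp apart (interval 338 to 460), with quartiles of 240 and 644 bp. The largest held 9 peaks of 3 to 26 bp within 307 bp (15325859 to 15326165), all unlabelled. A cluster of 7 unlabelled peaks (representative positions 15338371 to 15338597) stood just past the promoter peaks of ENSGALG00000051776. Peaks of the dense run together covered 3100 bp, or 3.44% of its 90 kb.

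The minus strand held few peaks. Apart from the 6 PLEKHA3 peaks it had 12 peaks over the 220 kb, all unlabelled, with a median width of 6 bp (interval 1 to 18) and 3 of them 1 bp wide. In the dense run they lay at 15290433, 15300189, 15329382, 15338783, 15378930 and 15379215, with widths of 1, 2, 18, 7, 28 and 2 bp. The 28 bp peak (15378924 to 15378951) was the widest on this strand, and a plus-strand peak followed it after 46 bp. The next widest were 2 PLEKHA3 promoter peaks of 25 and 19 bp, a 20 bp peak at 15273111 to 15273130 and the 18 bp peak of the dense run. For 6 of the 12 a plus-strand peak followed within 400 bp, the distance and order that a divergent pair would have. The median gap between plus-strand peaks, 190.5 bp in the dense run, is shorter than 400 bp. At 15205722, 15221733, 15338783 and 15379215 a plus-strand peak also lay before the minus-strand peak, by 218, 250, 186 and 10 bp. There it was nearer than the one that followed. The share over all unlabelled peaks was not computed, so the count of 6 is not read as divergent pairing. The peaks at 15273111 and 15398012 were more solitary, each over 1 kb from any plus-strand peak. In the 9 minus-strand unlabelled peaks of 2 bp or more, the representative base was the first transcribed in 6 (66.7%, interval 35.4 to 87.9). The share was 9.47% for the unlabelled plus-strand peaks of the stretch and 25.3% for all unlabelled peaks. Among the 6, the peaks at 15300189 and 15379215 were 2 bp wide, so their base could only lie at an end.

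The plus-strand run did not start at the edge of the stretch. The last peak outside it, at 15199984 and 7 bp wide, and the first inside it, at 15200279 and 13 bp wide, were both on the plus strand and 295 bp apart. At the other edge the last inside was the 10 bp promoter peak of ENSGALG00000009149 at 15401958, and the first outside a 1 bp minus-strand peak at 15429533. Linked by steps of at most 10 kb, the plus-strand peaks formed a chain from 15144541 to 15401958, 257417 bp long, with 461 plus-strand and 24 minus-strand peaks. Of these, 78 plus-strand and 6 minus-strand peaks lay before the stretch, with a median plus-strand width of 10.5 bp (interval 7 to 12). The chain was separated from the plus-strand peak before it by 20413 bp, beyond CCDC141, and from the one after it by 51242 bp, past PLEKHA3. A chain ends by definition at a step over 10 kb, so a longer gap at each end was fixed in advance. Toward its end it crossed steps of 8946 bp from 15383975 and 8879 bp from 15392921, close to the 10 kb limit. In the middle of the stretch it also crossed a step of 8297 bp, from 15269826 to 15278123. No other limit was tried, so the chain's end past PLEKHA3 and its continuity across that step rest on that choice.

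The chain opened with the promoter of ENSGALG00000052741, a single peak of 301 bp (15144438 to 15144738), 62630 bp past the CCDC141 promoter. From it to ENSGALG00000051229 there were 106 plus-strand and 7 minus-strand peaks, or 1.48 plus-strand peaks per kb. The flanking genes with labels were otherwise SESTD1, with 5 plus-strand peaks from 15017436 to 15032338, and CCDC141, with 1 of 10 bp. On the far side came RBM45, an RNA-binding protein gene, with 2 minus-strand peaks at 15541473 and 15541499, TTC30B with 1 at 15680092, and NFE2L2, the regulator of the antioxidant response, with 14 from 15795220. FKBP7, DFNB59 and OSBPL6, which the RefSeq table places between PLEKHA3 and RBM45, had no label by symbol.

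TTN itself and genes of the sarcomere that work with titin were examined for the same features. Of 44 genes, TTN included and all in the RefSeq table, 30 had a promoter peak labelled with their symbol (68.2%, interval 53.4 to 80.0). Over the 14357 protein-coding genes with a symbol the share was 57.0%, which lies inside that interval. With promoter peaks over 1 bp wide only, 26 of the 44 had such a label. The share of all genes was not computed for that setting. In the group listed as giant and related genes NEBL had 5 promoter peaks labelled by symbol and OBSL1 had 2. TTN, NEB and SPEG, which code for titin, nebulin and a muscle kinase, had none by symbol, and the same limit holds for each gene given below as without a label. Of the Z-disc genes 5 of 10 were labelled, ACTN2, CSRP3, LDB3, MYOZ2 and SYNPO2, while TCAP, which caps the Z-disc end of titin, MYOZ1, MYPN, MYOT and FLNC were not. In the M-band MYOM1 and MYOM2, which cross-link thick filaments, had 2 and 5 peaks and MYOM3 none. I-band and signalling partners were labelled in 6 of 8 cases, including CAPN3, a protease that binds titin, with 1 peak, and ANKRD1 and TRIM63 with 2 each. FHL2 and TRIM54 had none. Thin and thick filament genes, taken with desmin, were labelled in 15 of 17 cases, with 8 peaks at MYBPC3 and none at TNNI2 or MYBPC2.

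In the window 500 to 20000 bp past the first promoter peak, 26 of the 30 labelled sarcomere genes had more unlabelled peaks on their own strand than on the other (86.7%), against 41.8% of all 10430 labelled genes on 1 sequence and strand. These windows held medians of 6 own-strand and 1.5 other-strand peaks in the list, but 1 and 1 over all genes. Equal counts, as in empty windows, do not count as more, so the shares also depend on peak number. The part of peak number was not tested. The median difference was 4 peaks (interval 2 to 8) in the list and 0 over all genes. A difference of at least 10 was found for 9 of the 30, against 2.18% of all genes. All 9 were thin and thick filament genes, and the largest difference in the other roles was 5, at MYOZ2. TNNC2, the calcium sensor of fast muscle, had 32 own-strand and 6 other-strand peaks, DES had 31 and 6, and ACTA1, skeletal actin, 32 and 9. The only promoter peak of ACTA1 was 1 bp wide. ACTC1, cardiac actin, had 11 and 0. The median own-strand count was 14 for the 15 labelled filament genes, which ranged from 0 to 32. It was 4 for the 5 Z-disc genes, which ranged from 0 to 6, and 4.5 for both M-band genes. For the 6 labelled I-band and signalling genes it was 5, and for NEBL and OBSL1, the labelled giant and related genes, 0.5. The filament and Z-disc ranges overlap, and differences between roles were not tested. NEBL had 0 and 4, MYBPC1 0 and 1, SYNPO2 0 and 0, and ANKRD2 6 and 6. Other-strand counts were also high at TPM2, with 32 and 18, TPM1, with 30 and 14, and TRIM63, with 11 and 9. In the same window gga-mir-7474 had 60 and 0, ENSGALG00000051776 57 and 1, and ENSGALG00000051229 37 and 3 in the same order, while ENSGALG00000048310 had 8 and 1. Each of these first 3 windows held more own-strand peaks than that of any labelled gene of the list, although the windows of gga-mir-7474 and ENSGALG00000051776 overlap. The list holds no fast myosin heavy chain gene. In the myosin cluster of chromosome 18, which codes for these, a 20 kb tile held as many as 123 peaks on 1 strand, though tiles are not placed at promoters. As the stretch was chosen for this feature, its place above the list is a description.

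**Figure D4:**
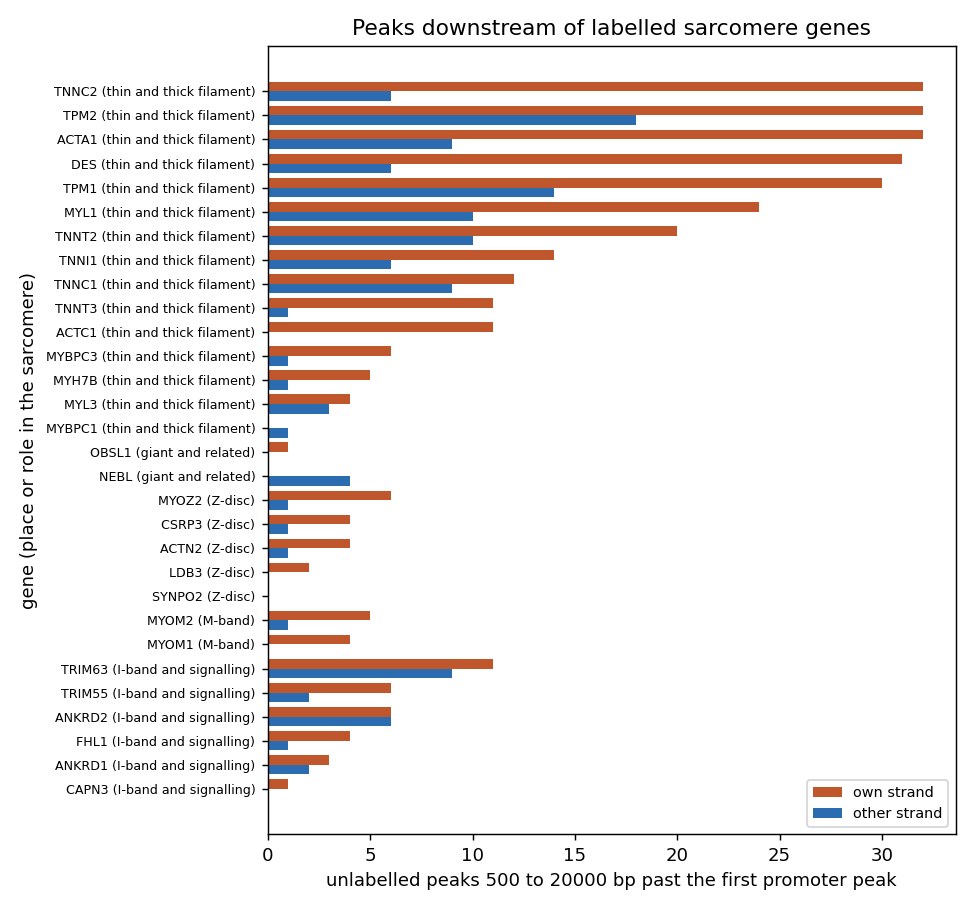
Number of unlabelled peaks (horizontal axis) by strand, own or other, in the window 500 to 20000 bp past the first promoter peak, for the 30 labelled sarcomere genes grouped by place or role (vertical axis). Own-strand counts range from 0 to 32 among filament genes and from 0 to 6 among Z-disc genes.

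Broad promoter peaks were found at several sarcomere genes. Over all 10437 labelled genes, 2.76% had a promoter peak over 100 bp wide, and 7 of the 30 labelled genes of the sarcomere list did. These were DES with 742 bp, LDB3 with 335, TRIM55 with 333, TRIM63 with 317, ANKRD2 with 200, CSRP3 with 138 and TNNI1 with 112. LDB3 and CSRP3 code for Z-disc proteins, and TRIM55 and TRIM63 for ubiquitin ligases of muscle. The 301 bp promoter peak of ENSGALG00000052741, which opens the plus-strand chain before the stretch, is in the range of these, whereas no peak inside the stretch exceeded 56 bp. This was looked for after the widths were seen, and it has no test.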

How the data were processed

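Libraries were made by the authors following nAnT-iCAGE, with molecular identifiers, from 5 µg of total RNA each, per the labels' protocols. STAR (2.7.9a) is named with UMI-tools (1.1.4) and GRCg6a as the build, per the submitters' processing notes. The deposited list is named as robust DPI peaks, from decomposition-based peak identification. Its settings, the value of the threshold and the label rule: not given in the sources used here. No header comes with the deposited list, and its BED score was 1 in every row, as was 1 further column, so neither was used. Printed positions are 1-based. The representative position was read as start plus an offset column, and it lay inside the peak in 100% of rows.

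Shares, medians, runs, tiles and gaps were computed in Python 3.11.15 (pandas 2.3.3, numpy 2.4.6, scipy 1.17.1, matplotlib 3.10.9), with functions tested on simulated data. The planned edgeR tests by growth type or tissue were not run, since no column belongs to a library. The members, the sarcomere list and the sections were chosen with earlier results of these data known. The 11 bp and 6 bp widths, clusters, the chain and broad promoters were examined after the values were seen. Named by rule were labelled genes in the stretch, the 3 nearest on each side, reference genes between them, members of the sarcomere list (1 of them is not reported here), the 5 widest peaks per strand, the ends of the longest runs and the minus-strand peaks of the dense run. Alternatives were other bounds, merged peaks, peaks without 1 bp widths or without labels, and other tiles and windows.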

Additional observations from a re-analysis of the deposited data

How the results depend on the processing

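Of 47 alternative values for 11 results, 42 stayed within the main value's counting interval, or within 1.5 times a count, and none reversed. Bounds drawn in by 20 kb on each side leave out the promoters of PLEKHA3, ENSGALG00000009149 and ENSGALG00000051229. With those bounds the share on the plus strand was 97.2% in place of 95.5%. The share with a promoter label was 3.91% in place of 6.23%. With same-strand peaks 20 bp or less apart merged, the median gap in the dense run was 296 bp in place of 190.5 bp. The share of tiles at least as full as the emptiest full tile of the dense run was 0.0278% with tiles of 20 kb. It was 0.377% with tiles of 10 kb, 0.00488% with tiles of 50 kb and 0.0465% with 20 kb tiles shifted by 10 kb. The lowest count was taken anew each time. At 50 kb a single full tile fits within the dense run. That tile set the cut and was alone in reaching it, so the value is not comparable with the others. The sarcomere list's median difference was 8 peaks with a window to 50000 bp, 3 with a window from 1000 bp or without 1 bp peaks, and 4 as reported; these and the shifted tiles stayed within the counting interval. The cause of these moves was not tested. The median width of 11 bp held under all alternatives run for it, and the longest run held 108 to 122 peaks. Tile minimums of 10 and 20 for the dense run, and the whole chain in place of the stretch, were chosen after seeing the data. No paired analysis was possible because the list has no value per bird or library. Without peak heights or depth, a weak peak and a strong one count alike.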
